A study of Mus musculus with 24 samples.

Results

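The genes described here are 7 genes of the slow skeletal muscle fibre, followed through 24 RNA sequencing libraries of mouse back skin: Myh7, Myl2, Myl3, Tnnc1, Tnni1, Tnnt1 and Atp2a2. They are 7 of the 29758 gene symbols with exon rows in the deposited count table. They were picked by symbol because, in earlier results from the same libraries, Myh7 and Myl2 were low in the feeding group called MD while fast muscle genes were not. Their levels in MD against the other groups, and those of their fast counterparts, are therefore given as a description with no test. The members were tested only in contrasts that played no part in the choice. Calls between MD and the other groups are given for other genes only. Skeletal muscle genes among these may share the pattern that led to the choice, so their calls are no independent support.

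Libraries were made with a stranded kit from total RNA of whole back skin of wild type male C57BL/6NCrl mice, aged 8 weeks. Their hair follicles were described as being at rest (telogen). Light and darkness alternated every 12 h, and for 18 to 21 days each group had food during a single daily window. In hours after lights on (ZT), the window was ZT0 to ZT4 for ED, ZT5 to ZT9 for MD and ZT12 to ZT16 for EN, names which the labels do not spell out. Each group had 8 libraries, taken every 4 h with ZT0 as the first and ZT28 as the last time, and each library came from the pooled RNA of 2 to 4 animals. No library came from mice fed without restriction. The series concerns the effect of feeding time on the clock of the skin. The labels do not say how animals were assigned to pools. With 1 pool per group and time, every p-value below refers to the spread between pools. That spread also holds changes over the day that the test does not model.

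Skeletal muscle fibres come in a slow, fatigue resistant type and several fast types, and each type builds its contractile filaments from its own set of genes. In the slow fibre, Myh7 encodes the myosin motor, Myl2 and Myl3 the light chains that bind to its neck, and Tnnc1, Tnni1 and Tnnt1 the troponin subunits that couple calcium to contraction. Atp2a2 encodes SERCA2, the pump that returns calcium to the sarcoplasmic reticulum. Back skin of the mouse includes the panniculus carnosus, a thin sheet of mainly fast muscle under the dermis, and heart muscle shares most of the slow set.

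The libraries held between 13091637 and 26052550 exon reads, so that 1 read was worth 0.0384 to 0.0764 CPM (TMM-scaled CPM, a level relative to the library's total with a correction for differences in composition). Some libraries stood apart within their groups. MD ZT12 and MD ZT16 had far more slow fibre reads than the other 6 MD libraries, while EN ZT4 and ED ZT28 had the fewest of their groups. Keratin genes of the growing hair follicle (Krt71, Krt27, Krt25 and Krt35) were high in ED ZT24 and EN ZT0. Their summed levels were up to 604 CPM in ED and 1361 CPM in EN, against group medians of 1.29 and 0.958 CPM. The resting state given above therefore does not describe all follicles in these pools. In bulk tissue, fewer cells of a type and less RNA per cell cannot be told apart.

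All 7 members passed the filter on low counts. Windows of 250 bases before the gene start were taken from RefSeq (GRCm38.p6), and 5 of the 7 members had a window within 50 bases of the start of a principal transcript. They were searched on both strands for CATTCC (the MCAT motif, bound by TEAD factors), CAGCTG (an E-box), a MEF2-type word (CTA and TAG with any 4 bases between them) and TATAA. The 3 windows below are shown because they share CATTCC, the motif found in most of the 5, with matches of CATTCC or its reverse complement and of TATAA in capitals. The Myh7 window is chr14:54994627-54994876, minus strand, the Myl3 window is chr9:110763428-110763677, plus strand, and the Tnnc1 window is chr14:31208062-31208311, plus strand.
Myh7: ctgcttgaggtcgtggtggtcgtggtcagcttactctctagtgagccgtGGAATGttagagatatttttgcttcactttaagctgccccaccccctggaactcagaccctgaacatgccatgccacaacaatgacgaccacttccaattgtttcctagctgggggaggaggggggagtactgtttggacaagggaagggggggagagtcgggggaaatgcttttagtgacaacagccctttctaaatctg
Myl3: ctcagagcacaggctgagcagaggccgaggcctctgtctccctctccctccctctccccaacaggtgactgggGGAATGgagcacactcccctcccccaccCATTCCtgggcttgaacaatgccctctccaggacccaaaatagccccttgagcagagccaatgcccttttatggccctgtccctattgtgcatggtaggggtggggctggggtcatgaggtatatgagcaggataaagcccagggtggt
Tnnc1: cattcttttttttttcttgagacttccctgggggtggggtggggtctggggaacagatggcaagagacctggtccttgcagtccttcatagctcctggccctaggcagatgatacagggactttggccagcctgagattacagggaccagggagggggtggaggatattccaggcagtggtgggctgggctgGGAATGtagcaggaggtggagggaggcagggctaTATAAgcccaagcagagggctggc
Counted to the first letter printed, the match lay 201 bases before the start in Myh7, 177 and 149 bases before it in Myl3 and 58 bases before it in Tnnc1, which also held TATAA at 24 bases. Of 32851 mouse windows of the same length, 12.6% held CATTCC and 22.8% held TATAA. The Tnnt1 window held TATAA at 30 bases, and the Tnni1 window held CAGCTG at 68 bases, a word found in 13% of windows. The MEF2-like word, found in 3.20% of windows, was in none of the 5. These matches describe letters and are not evidence of binding.

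Myh7, the slow myosin heavy chain (chromosome 14, 54970684 to 54994626, minus strand, GRCm38), was the member with the widest range on the log2 scale. In MD its level ran from 0.0491 CPM at ZT28 to 10.3 CPM at ZT16, with a median of 0.611 CPM. In ED it ran from 7.93 CPM at ZT28 to 30.7 CPM at ZT12 (median 19.8 CPM), and in EN from 2.58 CPM at ZT4 to 27.1 CPM at ZT8 (median 15.9 CPM). In raw reads, MD ZT28 had 1 read of Myh7, MD ZT0 had 3 and MD ZT16 had 205, while ED ZT0 had 588. Of the MD libraries, 6 lay below the lowest library of ED and of EN, and MD ZT12 and MD ZT16 lay inside the range of both. The latter pair carried 82.7% of all Myh7 reads of MD, and the other 6 averaged 0.602 ± 0.678 CPM (SD, n = 6). The mean was 2.85 ± 4.21 CPM (SD, n = 8) in MD, 20.9 ± 7.35 CPM in ED and 16.3 ± 8.13 CPM in EN. On the log2 CPM scale the fitted mean over the day was lower in MD by 3.64 ± 0.425 (SE) against ED and by 3.21 ± 0.425 against EN. Without MD ZT12 and MD ZT16 the difference was -3.87 against ED and -3.45 against EN. Myh7 lies beside Myh6, its cardiac copy, and shares 15.6% of its 50-base words with other genes, nearly all of them with Myh6. Myh6 itself was at 0.121 ± 0.115 CPM in MD, 0.118 ± 0.0980 CPM in ED and 0.176 ± 0.0949 CPM in EN.

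The light chain genes followed the same libraries. Myl2, the regulatory light chain of slow and cardiac myosin (chromosome 5, 122100951 to 122113472), had no read in MD ZT0, where a count of 0 allows up to 0.132 CPM (3 reads, counting error only), and reached 4.03 CPM in MD ZT12. Its median was 0.387 CPM in MD, 5.18 CPM in ED (range 1.81 to 10.3 CPM) and 5.49 CPM in EN (range 1.41 to 7.87 CPM). Of the MD libraries, 7 were below the lowest ED library and 6 below the lowest EN library. The fitted mean was lower in MD by 2.86 ± 0.445 (log2, SE) against ED and by 2.70 ± 0.445 against EN. Myl3, the essential light chain (chromosome 9, 110741861 to 110769798), had no more than 73 reads in any library. It ran from 0 to 1.34 CPM in MD (median 0.433 CPM), from 0.642 to 3.35 CPM in ED (median 2.23 CPM) and from 0.184 to 3.70 CPM in EN (median 2.68 CPM). The MD range overlapped both others, with 6 MD libraries below the lowest ED library and 2 below the lowest EN library, and the difference was -1.63 ± 0.529 against ED and -1.85 ± 0.529 against EN.

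The troponin subunits were also lower in MD, with Tnnt1 the least so. Tnnc1, the calcium binding subunit (chromosome 14, 31208312 to 31211729), ran from 0 to 2.20 CPM in MD, from 0.816 to 5.43 CPM in ED and from 0.246 to 3.38 CPM in EN, with medians of 0.237, 2.02 and 2.29 CPM. Tnni1, the slow inhibitory subunit (chromosome 1, 135779434 to 135810989), ran from 0.0853 to 1.86 CPM in MD, from 1.17 to 6.59 CPM in ED and from 0.491 to 5.61 CPM in EN, with medians of 0.361, 3.37 and 3.06 CPM. Tnnt1, the slow subunit that binds tropomyosin (chromosome 7, 4504570 to 4516382, minus strand), ran from 0.597 to 3.32 CPM in MD, from 3.15 to 8.04 CPM in ED and from 2.33 to 6.45 CPM in EN. All 3 ranges of MD overlapped those of ED and EN at their upper ends. The log2 differences of MD from ED were -2.16 ± 0.478 for Tnnc1, -2.42 ± 0.463 for Tnni1 and -1.53 ± 0.289 for Tnnt1, and those from EN were -1.94, -2.23 and -1.34.

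Atp2a2 did not share this pattern. The pump gene (chromosome 5, 122453513 to 122502225, minus strand), which is also expressed in other tissues of the skin such as keratinocytes, ran from 179 to 229 CPM in MD, from 200.5 to 287 CPM in ED and from 184 to 236 CPM in EN. The groups overlapped nearly throughout, and the log2 difference of MD was -0.08 ± 0.0625 from ED and 0.01 ± 0.0625 from EN. Over the other settings of the analysis the difference from EN lay between -0.10 and 0.08, and that from ED between -0.19 (limma on the deposited RPKM values) and -0.02 (without MD ZT12 and MD ZT16). No member had all 8 MD libraries below all 16 others, a separation seen in 0.528% of the 15719 genes tested. None had all MD libraries below all ED libraries (0.782% of genes) or below all EN libraries (2.48% of genes). The median log2 difference of the 7 members was -2.16 from ED and -1.94 from EN, against -0.01 and 0.00 over all genes tested. As background for these contrasts, which the choice of members used, edgeR called 23% of all genes between MD and ED and 30.2% between MD and EN.

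**Figure D1:**
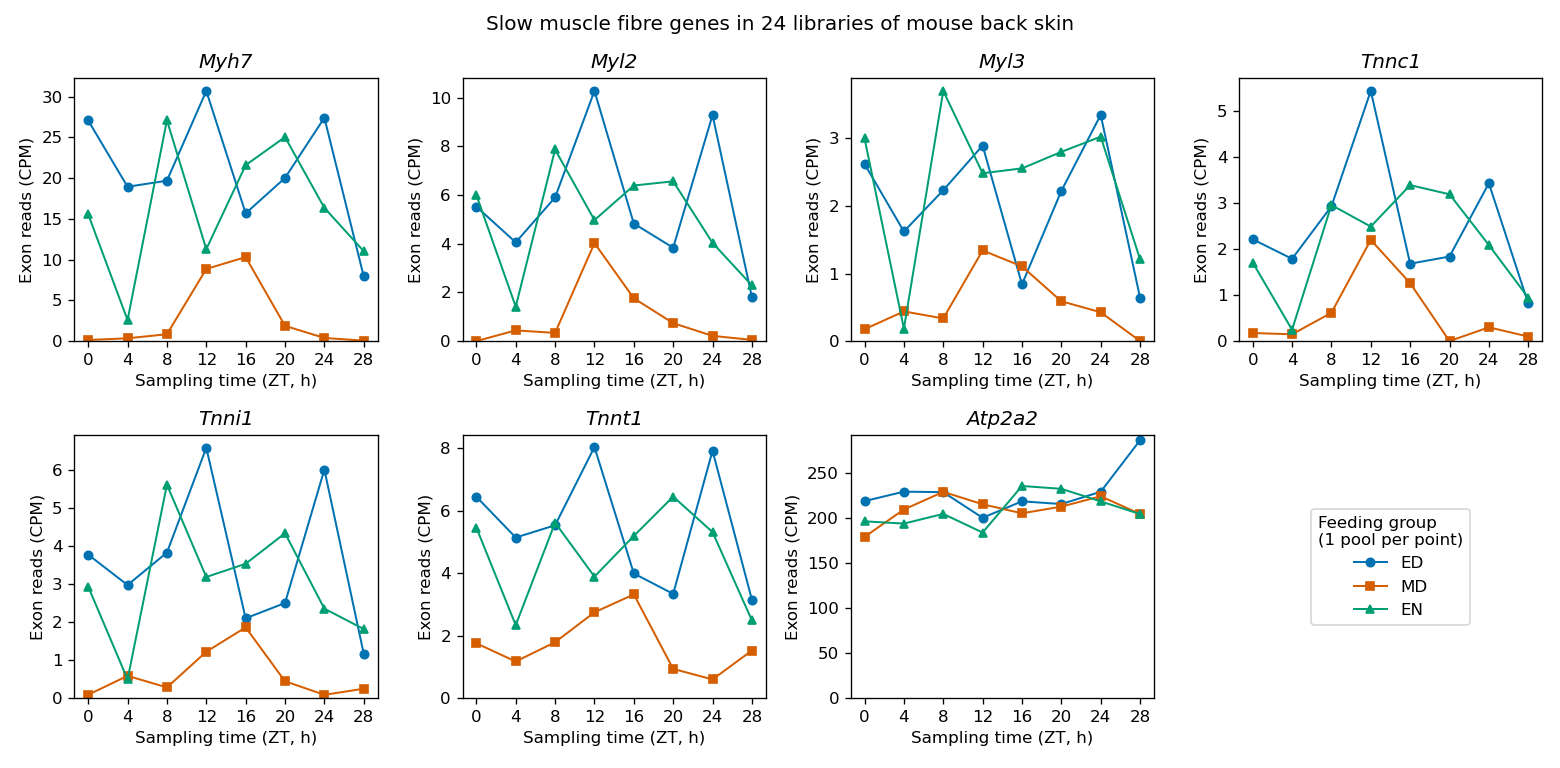
Exon reads of each gene (CPM, linear axis from 0) against sampling time in hours after lights on, with 1 point for each of the 24 pools and 1 line for each feeding group. In MD, the 6 genes other than Atp2a2 are highest at ZT12 or ZT16, where Tnnt1 stands out least (the other 6 MD libraries average 1.29 CPM), while Atp2a2 stays between 179 and 287 CPM in all groups.

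Scaled to exon length, Atp2a2 stood far above the other members in every group, at 43.3 ± 4.82 CPM per kb in ED, 39.8 ± 2.88 in MD and 39.6 ± 3.52 in EN. In ED, Tnnt1 (3.58 ± 1.26 CPM per kb), Myl2 (3.54 ± 1.76), Tnnc1 (3.49 ± 1.97) and Myh7 (3.28 ± 1.15) did not differ beyond their spread, and Tnni1 (2.12 ± 1.10) and Myl3 (1.65 ± 0.770) were lowest and overlapped each other. In EN the same 4 genes lay between 2.56 and 3.07 CPM per kb. In MD all 6 lay between 0.352 CPM per kb (Tnni1) and 1.14 CPM per kb (Tnnt1), with SDs from 0.366 to 1.06. Fast genes were far more abundant on this scale, with Mylpf at 1071 ± 344 and Myh4 at 723 ± 281 CPM per kb in ED.

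After each group's mean was removed, the 6 genes of the sarcomere went up and down together from library to library. The 15 correlations between them (log2 CPM, 24 libraries, all values from the same libraries and low counts) ran from 0.588 to 0.926, with a median of 0.776. Myh7 and Myl2 gave the highest. Atp2a2 gave correlations of -0.109 to 0.116 with the other 6, but these pooled values join groups of opposite sign. Over the 8 libraries of a group they ran from -0.860 (Myh7) to -0.533 (Tnnt1) in ED, from -0.261 to 0.416 in MD and from 0.335 to 0.561 in EN. Summed over the 6 genes, the level was 40.2 ± 15.7 CPM in ED, 33.4 ± 15.05 CPM in EN and 7.27 ± 7.91 CPM in MD (SD, n = 8), and the 6 lowest libraries of the 24 were MD libraries.

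Most fast counterparts of the members were at higher levels in MD, opposite to the 6 sarcomere members. Myh4, Myh1 and Myh2, the fast myosin heavy chains, had fitted means in MD that differed from ED by 0.71 ± 0.219, 1.06 ± 0.190 and 0.77 ± 0.228 (log2, SE), and from EN by 0.51, 0.77 and 0.80. Myh4 averaged 6558 ± 1387 CPM in MD, 4351 ± 1692 CPM in ED and 5065 ± 1742 CPM in EN. Tnnc2, Tnni2 and Tnnt3, the fast troponins, differed by 0.67, 0.78 and 0.83 from ED, and Atp2a1, the fast calcium pump, by 0.82. The fast light chains Mylpf and Myl1 differed least, by 0.16 and 0.25 from ED and by -0.06 and 0.06 from EN. For these 2 genes the sign against EN depended on the setting, with -0.16 to 0.15 for Mylpf and -0.06 to 0.27 for Myl1.

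The ratio of a slow to a fast gene within a library does not depend on the library's total, and was taken from levels scaled to exon length (CPM per kb). Per 100000 units of the 3 fast heavy chains together, Myh7 stood at 425 ± 183 units in ED, 302 ± 212 in EN and 31.6 ± 46.2 in MD (SD, n = 8), where a unit is 1 CPM per kb. The lowest MD library, ZT28, had 0.522 and the highest, ZT12, had 112. ED ZT28, with 76.7, and EN ZT4, with 24.6, lay within the MD range. Per 100000 units of Tnni2, Tnni1 stood at 318 ± 159 units in ED, 218 ± 168 in EN and 30.6 ± 31.4 in MD. Per 100000 units of Tnnt3, Tnnt1 stood at 419 ± 166 units in ED, 290 ± 151 in EN and 75.8 ± 40.6 in MD, and the highest MD library (132) lay below the lowest ED library (160) and above the lowest EN library (89.0). In mean log2 ratio, MD differed from ED by -4.94 for Myh7, -3.31 for Myl2, -2.07 for Myl3, -3.02 for Tnnc1, -3.40 for Tnni1, -2.48 for Tnnt1 and -0.82 for Atp2a2.

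**Figure D2:**
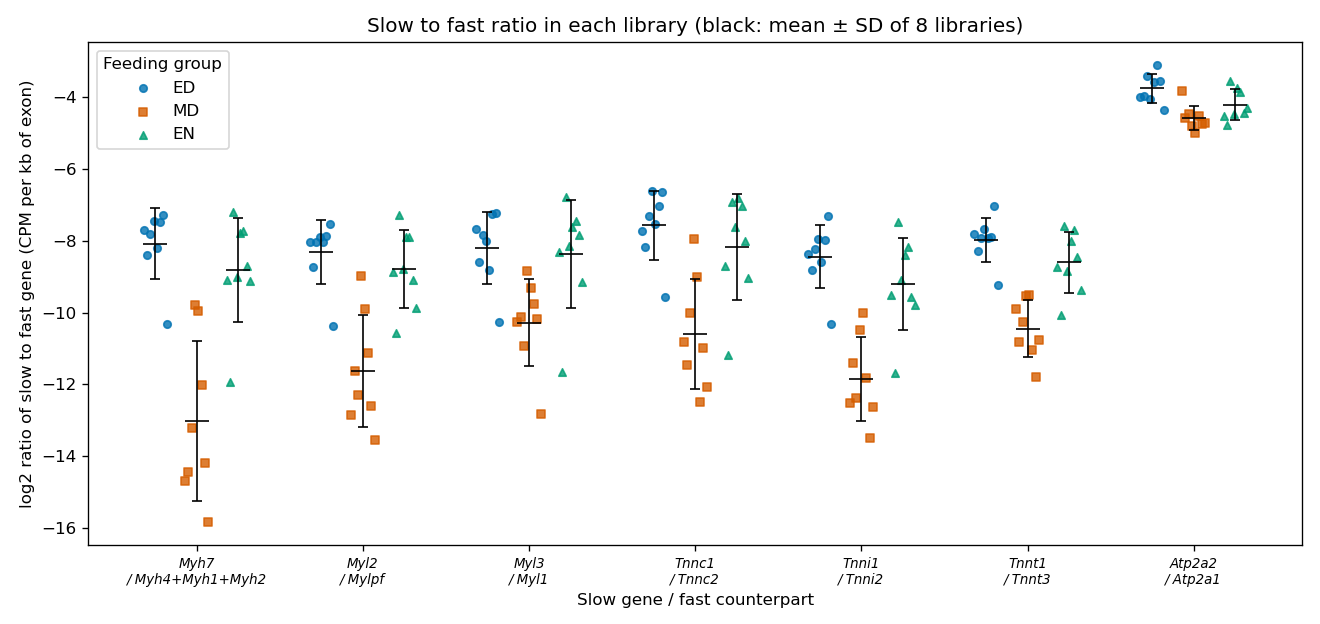
Log2 ratio of each slow gene to its fast counterpart, from levels in CPM per kb of exon, with 1 point per library and the mean ± SD of 8 libraries in black. The mean Myh7 ratio is -8.08 in ED, -8.82 in EN and -13.0 in MD, and the lowest ED and EN points are ED ZT28 and EN ZT4.

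In EN against ED, a contrast not used to choose the genes, no member passed the test of level. The log2 differences of EN from ED were -0.42 ± 0.425 for Myh7, -0.16 ± 0.445 for Myl2, 0.22 ± 0.529 for Myl3, -0.21 ± 0.478 for Tnnc1, -0.19 ± 0.463 for Tnni1, -0.19 ± 0.289 for Tnnt1 and -0.10 ± 0.0625 for Atp2a2. The adjusted p-values of the members were between 0.848 and 0.943 (edgeR quasi-likelihood test, Benjamini-Hochberg adjustment over all genes). This contrast called 0 of the 15719 genes (0%) with edgeR and 6 with DESeq2, while 961 had an unadjusted p under 0.05 with edgeR and no member did. The slow to fast ratio was lower in EN than in ED for all 7 pairs, by 0.15 (Myl3) to 0.77 (Tnni1) on the log2 scale, and none passed an exact two-sided permutation test of 8 against 8 libraries. The smallest p was that of Atp2a2, with a difference of -0.45 ± 0.211 (SE, exact permutation p = 0.0528, adjusted over the 7 pairs 0.370). Leaving out EN ZT4 turned the sign for Myl3, from -0.15 to 0.32, and without ED ZT28 it was -0.44.

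Other genes tied to slow or oxidative fibres were mostly higher in MD, opposite to the 6 members. Of 14 such genes tested, 10 were higher in MD than in ED and 8 were higher in MD than in EN, and none was lower (edgeR, adjusted p under 0.05). Over all genes, 11.2% were called higher in the first contrast and 14.4% in the second. Pln, which encodes phospholamban, an inhibitor of SERCA2, was higher by 1.44 ± 0.203 (log2, SE) than in ED, at 1.38 ± 0.314 CPM in MD and 0.555 ± 0.259 CPM in ED. Myoz2, a Z-disc protein gene of slow and cardiac muscle, was higher by 1.16 ± 0.180, at 16.9 ± 2.57 CPM against 8.03 ± 2.88 CPM. Csrp3 (0.99 ± 0.265), Actn2 (0.93 ± 0.194), Ankrd2 (1.01 ± 0.196), Mybpc1 (0.76 ± 0.125) and Mb, which encodes myoglobin (0.74 ± 0.161), were higher as well. Tpm3, the slow tropomyosin gene, which is also expressed in cells other than muscle, differed by -0.06 ± 0.0516, and Myh7b, a myosin gene related to Myh7, stood at 0.511, 0.508 and 0.498 CPM in MD, ED and EN. Myl6b, a myosin light chain gene, had a lower mean in MD, at 0.656 ± 0.258 CPM, and did not pass. It was at 0.878 ± 0.413 CPM in ED and 0.918 ± 0.240 CPM in EN. On the log2 scale, 11 of the 14 differences from ED were above 0. The median difference from ED over the 14 genes was 0.77, against -0.01 over all genes tested. A rise of this size was not particular to slow or oxidative genes. The median was also 0.77 over the 9 fast counterparts. It was 0.81 over 11 skeletal muscle genes, a list that includes fast fibre genes such as Actn3 and Mybpc2.

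Genes of factors and enzymes that bear on fibre type were higher in MD too. Their levels were measured in whole skin and need not be those of muscle. Of 18 tested, 14 were higher than in ED and 13 were higher than in EN, with none lower. Over all genes, 11.2% and 14.4% were called higher. The median differences of the 18 were 0.50 and 0.43, below the 0.81 and 0.61 of the 11 skeletal muscle genes, fast fibre genes among them. Eya1 (0.58 ± 0.102 against ED) encodes a transcriptional coactivator that favours the fast programme, as does Sox6 (0.43 ± 0.128), a repressor of slow genes. Genes known to favour slow or oxidative fibres were also among them, namely Ppargc1a (0.66 ± 0.153), Esrrg (1.14 ± 0.241), Nfatc1 (0.35 ± 0.0875), Mef2c (0.49 ± 0.0889) and Mef2d (0.53 ± 0.0974). Tead1 (0.51 ± 0.0807) and Tead4 (0.59 ± 0.0928) encode factors that bind the MCAT motif capitalised in the windows above. Prox1 (0.06 ± 0.151), Tbx15 (0.16 ± 0.0660) and Rcan1 (0.14 ± 0.138) did not pass against ED. Both counts fell when MD ZT12 and MD ZT16, the only MD libraries at clock times ZT12 and ZT16, were left out. Then 5 of the 14 fibre genes and 3 of the 18 regulators passed against ED, and 3 and 2 passed against EN. Calls over all genes went from 3608 to 315 against ED and from 4748 to 632 against EN, with 22 libraries in the fit. The 14 fibre genes summed to 1201 and 1368 CPM in MD ZT12 and MD ZT16, against an MD median of 1363 CPM. The regulators summed to 911 and 1010 CPM there, against an MD median of 962 CPM.

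**Figure D3:**
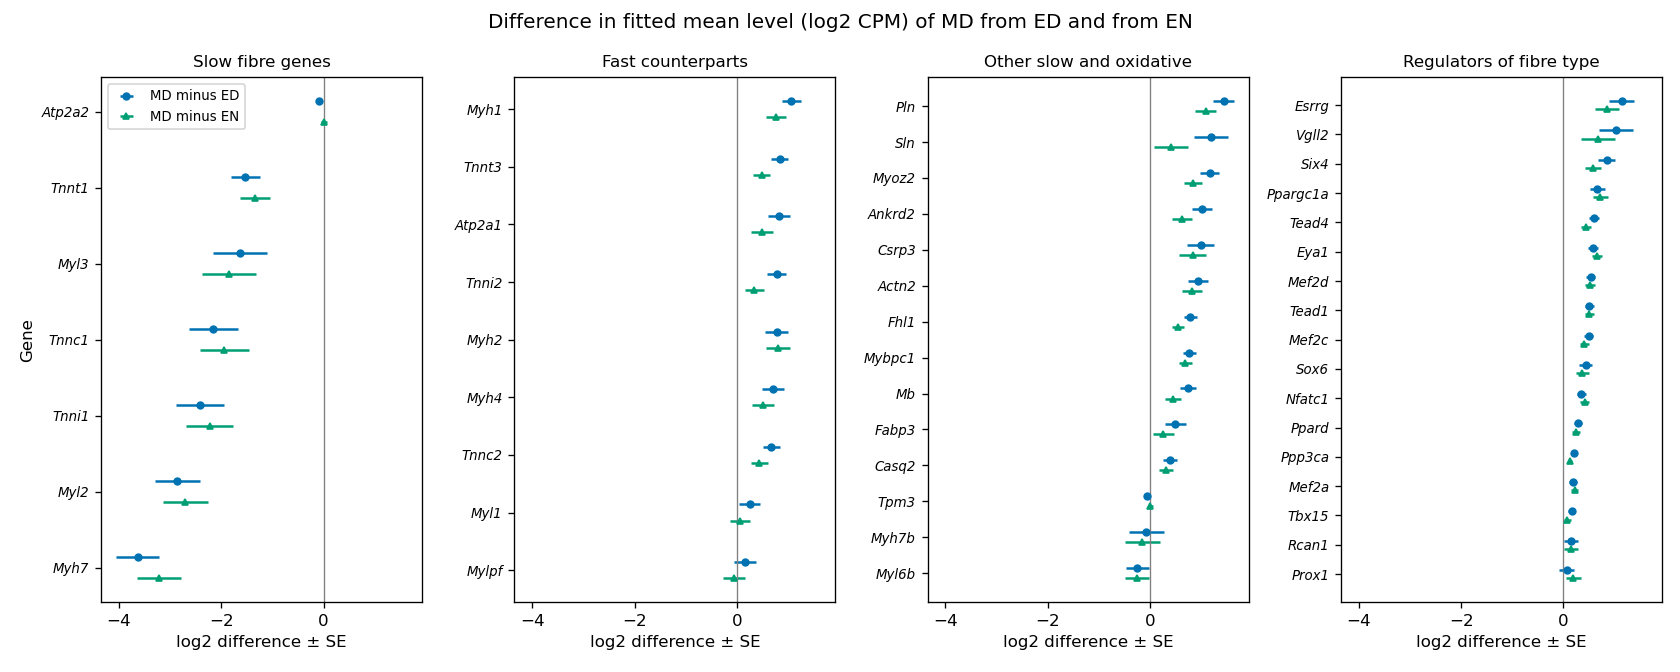
Difference in fitted mean level (log2 CPM ± SE) of MD from ED and from EN, in panels for the 7 slow genes, their 9 fast counterparts, 14 other slow and oxidative fibre genes and regulators of fibre type. The slow genes other than Atp2a2 lie between -1.34 and -3.64, while most genes in the other panels lie above 0.

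Within MD, Myh7 and Myl2 varied with the time of day. Earlier results of these data already showed this, so it is no independent support. A curve with a period of 24 h gave Myh7 an amplitude of 2.87 ± 0.402 (log2, mean to peak, SE) and its highest point at ZT 14.6 ± 0.578 h in MD (edgeR, adjusted p = 0.00134), and Myl2 an amplitude of 2.01 ± 0.419 and its highest point at ZT 13.8 ± 0.866 h (adjusted p = 0.0338). Tnnc1 peaked at ZT 12.2 ± 1.17 h with an amplitude of 1.57 ± 0.460 and did not pass (edgeR, adjusted p = 0.0662), and the other 4 members had adjusted p-values above it. Of the 7 members, 2 passed in MD, where 0.942% of all genes did, and 0 of 7 passed in ED and in EN, where 0.719% and 1.06% did, with no member at an unadjusted p under 0.05 in either group and none called there by DESeq2. Amplitudes of Myh7 were 0.25 ± 0.423 in ED and 0.77 ± 0.419 in EN. The rhythm of Myh7 differed between MD and ED (edgeR, adjusted p = 0.0230, 0.35% of genes called) and did not pass between MD and EN (adjusted p = 0.0806, 0.35% of genes called). The latter passed with clock time as a block (edgeR, adjusted p = 0.0294), with DESeq2 (adjusted p = 0.0111) and without ED ZT28, EN ZT4 or EN ZT8, where the lowest adjusted p was 0.00758. No member differed in rhythm between EN and ED, where 0.401% of genes did (edgeR).

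The test of rhythm in MD rested on MD ZT12 and MD ZT16, which were adjacent in time and shared a library code with MD ZT20. Without both, the adjusted p was 0.525 for Myh7 and 0.749 for Myl2 (edgeR), and no member passed. Over all genes, calls of rhythm in MD fell from 148 to 32 in that fit. No other MD library was taken at clock times ZT12 or ZT16, near the fitted peaks, so a fit without both cannot test the peak. Leaving out MD ZT0, MD ZT12 or MD ZT28 alone ended the call for Myl2, with adjusted p-values of up to 0.242 (edgeR), as did leaving out the second day (0.0939). The difference in Myh7 rhythm between MD and ED was lost without ED ZT4, ED ZT16, MD ZT0, MD ZT12, MD ZT16 or MD ZT28, with adjusted p-values of up to 0.0840 (edgeR). It was also lost without the second day (0.178), without ED ZT24 and EN ZT0 (0.0545) and with limma on the deposited RPKM values (0.262). The second day repeats clock times ZT0 and ZT4 in each group and so shows how far pools of the same clock time lie apart. Myh7 was at 0.132 and 0.384 CPM at ZT0 and ZT24 in MD and at 0.341 and 0.0491 CPM at ZT4 and ZT28, so that all 4 pools were low. In ED it was at 27.1 and 27.4 CPM at ZT0 and ZT24, but at 18.9 and 7.93 CPM at ZT4 and ZT28. In EN it was at 15.5 and 16.3 CPM at ZT0 and ZT24, but at 2.58 and 11.03 CPM at ZT4 and ZT28, a log2 difference of 2.05 between pools of the same clock time.

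No slow gene passed the test for time since food. The contrast set 7 libraries collected 3 to 8 h into the feeding cycle, counted from the opening of the window, against 9 collected at 19 to 24 h, with group and clock time in the model. None of the 7 members passed (edgeR, adjusted p under 0.05), where 4.85% of all genes did (2.39% higher after food, 2.46% lower), and 1 had an unadjusted p under 0.05. That gene was Atp2a2, at 237 ± 22.9 CPM after food and 208 ± 17.1 CPM before, with a log2 difference of 0.20 ± 0.0580 and an adjusted p of 0.0755. Its adjusted p was 0.0364 with DESeq2 and 0.0326 with limma on the deposited RPKM values. Without ED ZT4 or MD ZT0 it also passed (edgeR), with an adjusted p as low as 0.0445. Myh7 differed by 0.93 ± 0.724 and the other 5 by -0.05 to 0.60. Among the regulators, Eya1 (0.48 ± 0.129, adjusted p = 0.0425) rose after food by the edgeR test.

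With group means removed, no relation between a slow gene and the level of fast muscle RNA in the library passed the test. Against the mean log2 CPM of the 9 fast counterparts, Myh7 gave Pearson r = -0.188 (p = 0.287, adjusted over 7 members 0.438) and Spearman rho = -0.287 (p = 0.149, adjusted 0.526), from permutation tests with 100000 shuffles within groups over 24 libraries. Without ED ZT20 and ED ZT28, the 2 libraries farthest from the median, r was -0.132. The other 6 members gave r between -0.318 and 0.234, none past the threshold. On the deposited RPKM values, r was -0.417 for Myh7, and Myh7, Myl3, Tnnc1 and Tnni1 passed, all with negative r. EN ZT4 had the highest fast level of all 24 libraries (10.6, log2 CPM) and the lowest Myh7 outside MD, and ED ZT28 had the highest fast level of ED (10.5) with the lowest Myh7 of ED. Within groups of 8 libraries, r for Myh7 was -0.761 in EN, -0.415 in ED and 0.224 in MD.

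**Figure D4:**
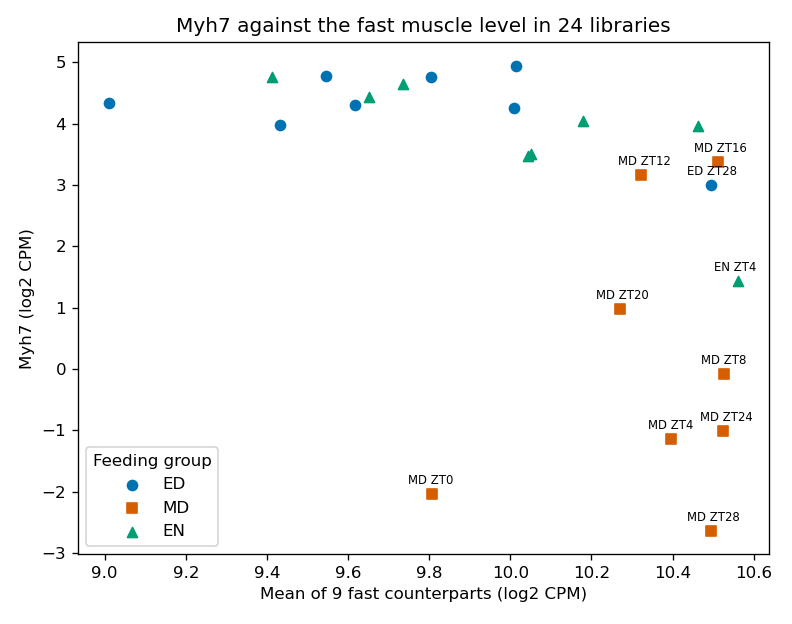
Myh7 (log2 CPM) against the mean log2 CPM of 9 fast counterparts, with 1 point per library and names beside the MD libraries, ED ZT28 and EN ZT4. MD libraries span -2.64 to 3.38 in Myh7 at fast levels between 9.81 and 10.5, and EN ZT4 has the highest fast level and a Myh7 value of 1.43.

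Markers of other tissues moved with MD as well, and their part in the result was not tested. A list of 11 skeletal muscle genes held Acta1, Ckm and Ttn but also fast fibre genes such as Actn3. Of these, 10 were higher in MD than in ED and 7 than in EN (4 and 2 without MD ZT12 and MD ZT16). Fast muscle genes in these contrasts were part of the choice of members, so these calls are no independent support. The sum of the 11 was 48983 to 70354 CPM in MD, 21684 to 56139 CPM in ED and 26139 to 58278 CPM in EN. Of 7 skin and fat markers, 4 were lower in MD than in ED and than in EN (1 without MD ZT12 and MD ZT16), namely Adipoq (96.4 ± 20.5 CPM in MD, 186 ± 35.7 CPM in ED) and Plin1 of fat cells and the collagen genes Col1a1 and Col1a2. Over all genes, 11.8% were called lower than in ED and 15.9% lower than in EN. The epidermal keratins of the list did not pass, with log2 differences from ED of -0.03 for Krt5, -0.15 for Krt14 and -0.04 for Krt10. The sum of the 7 was 23219 to 35804 CPM in MD against 32167 to 54455 CPM in ED. Of the 8 cardiac markers, Myl7 and Nppa were at 0 in every MD library and at no more than 0.152 CPM elsewhere, and Mybpc3 and Myh6 were below 0.640 CPM in every library. The list summed to 11.04 to 17.1 CPM in MD, 9.16 to 13.6 CPM in ED and 8.64 to 12.96 CPM in EN, with Tnnt2 and Ryr2 higher in MD against both groups. Of 5 smooth muscle markers 2 were higher than in ED and 3 than in EN, and of 2 brown fat markers and 2 hair follicle keratin genes tested none passed. Of the embryonic and neonatal myosins, Myh8 was higher in MD than in ED by 1.28 ± 0.246. Small nucleolar RNA rows, 48 in number and chosen after their values were seen, summed to 339 to 2042 CPM in MD, 2526 to 6231 CPM in ED and 3042 to 5402 CPM in EN.

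Hox genes, which mark position along the body, were chosen for mention after their values were seen. Hoxa5 was at 9.16 ± 2.46 CPM in MD, 3.95 ± 0.827 CPM in ED and 4.66 ± 0.912 CPM in EN. All MD libraries lay above all ED libraries, as for 0.585% of the genes tested, while MD and EN overlapped (highest EN library 5.96 CPM). Within MD the lowest Hoxa5 level, 5.80 CPM, was that of ZT12, and ZT16 had 7.39 CPM against a median of 8.64 CPM. Hoxc10 had no read in ED or EN and up to 2.94 CPM in MD. The part of these differences in the slow fibre result was not tested. The labels also carry a code from L1 to L8 for each library, whose meaning they do not give, and MD libraries have L1 to L3 only. Group and code cannot be told apart except within L3, where Myh7 was at 0.384 and 0.0491 CPM in MD ZT24 and MD ZT28 and at 27.1 CPM in ED ZT0, and within L6, where it was at 7.93 CPM in ED ZT28 and at 15.5 and 2.58 CPM in EN ZT0 and EN ZT4.

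Genes were ranked by how closely their log2 CPM ran with each member over the 24 libraries, with the members and fast counterparts left out. The genes that then came closest were for the most part no muscle genes. Some genes left out ran closer, such as Myl2 with Myh7 (Pearson r = 0.972). These likenesses include the difference between groups that led to the choice of members. For Myh7, Plod1, a collagen lysine hydroxylase gene, came first with Pearson r = 0.899, followed by BC017643, Snora81, Snora21 and H2-D1. For Myl2, Snora5c came first (0.908), followed by Snora15, Snora68, Defb8, a defensin gene (0.905), and Vaultrc5. For Tnni1, Defb8 came first (0.884), at 8.14 ± 12.4 CPM in MD and 37.5 ± 25.0 CPM in ED. For Myl3, Plod1 came first again (0.863), for Tnnc1, St3gal4 (0.843), and for Tnnt1, Snord67 (0.875). Atp2a2 kept other company, with Mlec (0.847), Hyou1 (0.847), Mdn1, Mtmr4 and Hspa5 (0.826), of which Hyou1 and Hspa5 encode chaperones of the endoplasmic reticulum.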

How the data were processed

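Exon reads per gene were deposited by the authors as raw counts, per the file headers. RPKM values were deposited in a separate table, whose name states cqn normalization and whose highest value is equal in every library. The submitters' processing notes name TopHat2, SAMtools, HOMER and the build mm10, and no source used here names the counting program. The 31872 exon rows were reduced to 29758 symbols by keeping the row with the highest total (2114 rows left out), and 9289 models had no count. No column belonged to another sample (0 columns). Depth was 13091637 to 26052550 exon reads per library.

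The counts were filtered (edgeR filterByExpr, minimum count 10), leaving 15719 genes, scaled by TMM and fitted with edgeR 4.0.16 (R 4.3.3) as a mean and a 24 h cosine and sine per group, with 15 residual degrees of freedom (14 for time since food). Adjusted p-values are Benjamini-Hochberg over all genes with a threshold of 0.05. Log2 differences ± SE and amplitudes came from least squares on log2 CPM (prior count 2). RPKM values were analysed as log2(RPKM + 0.1) with limma 3.58.1. DESeq2 1.42.0 was an alternative, and without the filter a trended dispersion was used. Slow to fast ratios were tested by exact permutation with NumPy 2.4.6. Correlations were tested with 100000 shuffles within groups, with ranks from SciPy 1.17.1. Sequences are from RefSeq (GRCm38.p6).

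Tested on simulated data for MD against ED over 15719 genes, the fit recovered 96% of 100 genes changed by 1 on the log2 scale and 98% of 100 changed by 2, with 12 unchanged genes called. The simulated counts were independent between genes, with a constant shift in MD and no rhythm. These shares therefore need not hold for the real pools, where genes vary together. Replicate numbers follow sampling time and do not pair animals, so sampling time was used as a block only as an alternative. The members and lists were chosen with earlier results of these data known. The rule for naming genes took all members and fast counterparts, and genes of other lists that passed a test or had the 3 highest levels. It also took the 5 genes most like each member, outside the members and fast counterparts. The text names a part of these. Genes named outside the rule, among them Prox1, Tbx15, Rcan1, Myh7b, Myl6b, Krt5, Krt14 and the Hox genes, were chosen after their values were seen. An item of the regulator list is not reported here by name.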

Additional observations from a re-analysis of the deposited data

Results flagged for a closer look

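Within the groups of 8 libraries, 42 sets of values were checked for a library far from the rest, and 8 were found by Dixon's criterion (0.526), where chance gives about 1 in 20. EN ZT4 was far below the rest of EN for Myh7 (log2 CPM 1.43), Myl3 (log2 CPM -1.76) and the log2 ratio of Myh7 to fast heavy chains (-11.9). ED ZT28 was far below the rest of ED for the log2 ratios of Myh7 (-10.3) and Myl2 (-10.4) to their fast counterparts, and far above it for Atp2a2 (log2 CPM 8.16). MD ZT0 was lowest in MD for Atp2a2 (log2 CPM 7.49) and highest in MD for the log2 ratio of Atp2a2 to Atp2a1 (-3.84).

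The rhythm of Myh7 differed between MD and ED by the edgeR interaction test (adjusted p = 0.0230), with amplitudes of 2.87 ± 0.402 in MD and 0.25 ± 0.423 in ED (log2, SE). Intron reads of Myh7, which no comparison used, exceeded the limit of 3 reads in each group, with up to 17 in a library of ED, 14 in MD and 17 in EN. Of the 28 intron reads of MD, 27 came from MD ZT12 and MD ZT16, while every ED library had at least 10.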

How the results depend on the processing

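No result changed direction among those with a call. Without MD ZT12 and MD ZT16, chosen after seeing the data, 0 members were rhythmic in MD and 0 differed in rhythm between MD and ED, and the genes called higher fell to 5 and 3 of 14 other fibre genes and to 3 and 2 of 18 regulators against ED and EN. Without the second day, 1 member was rhythmic in MD and 0 differed between MD and ED. The difference between MD and ED was also 0 members with limma on the RPKM values and without ED ZT24 and EN ZT0. After food, 1 member was called with DESeq2 and 1 with limma on the RPKM values. With RPKM values, 4 members were related to the fast level. Leaving out single libraries gave 0 to 1 members after food, 0 to 1 for rhythm between EN and MD, 1 to 3 for rhythm in MD and 0 to 1 for rhythm between MD and ED.

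With sampling time as a replicate block, which pairs no animals, 1 member differed in rhythm between EN and MD, as with DESeq2 (1), the Myh7 adjusted p for MD against ED was 0.00643, and no pair differed in its slow to fast ratio between EN and ED.

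Over all genes, calls between MD and ED went from 3608 to 315 without MD ZT12 and MD ZT16 (1976 to 3945 without single libraries), and between MD and EN from 4748 to 632 (3172 to 4989). Rhythmic genes ranged from 18 to 388 in ED (main 113), 32 to 494 in MD (148) and 68 to 348 in EN (166), with the highest counts from DESeq2. Differences in rhythm ranged from 16 to 210 (MD and ED, 55), 22 to 272 (EN and ED, 63) and 19 to 243 (EN and MD, 55), and calls after food from 371 to 1126 (762). Without single libraries these counts went as low as 25, 51, 41, 29, 33, 22 and 306. EN against ED gave 0 to 6 calls. Low counts limit Myl2, Myl3, Tnnc1, Tnni1 and Tnnt1 in MD, where a library had at most 66 reads. They also limit Myh7 in the MD libraries other than ZT12 and ZT16, which had from 1 read (ZT28) to 38 reads (ZT20).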
